A study of Mus musculus with 5 samples.

Results

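Cellular iron handling was followed in primary mouse rib chondrocytes kept in culture, through 7 genes: Tfrc, Meltf and Trf at uptake, Slc11a2 at transport out of the endosome, Fth1 at storage, and Slc40a1 and Cp at export. The 7 genes were chosen by name, against 18193 genes with a probe set of their own in the whole table, and every probe set annotated to one of them alone was read. A probe set is a group of oligonucleotide probes designed against a transcript. There were 23 such probe sets among 45101, for 6 of the 7 genes. The transferrin gene Trf had none, because the probe set annotated to it also carries the symbol Srprb, and it has no value here. The genes were picked with their intensities on these arrays known, so every difference of theirs between days is a description with no test.

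Rib cages of E18.5 FVB embryos were digested with enzymes, and the freed cells were plated on gelatin-coated dishes, in a serum-containing medium with ascorbic acid and beta-glycerophosphate. The labels give no genotype, drug or other agent that separates the groups, which differ in their day of culture. There was 1 array each for days 2, 6, 9, 12 and 15, and the labels do not say whether the dishes shared a cell isolate. Dissociated rib cages can hold cells other than chondrocytes, and in such bulk RNA fewer cells of a type and less RNA per cell cannot be told apart.

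Cells take up most of their iron bound to transferrin, the plasma carrier, through the transferrin receptor. They release it inside the endosome, where it is reduced and carried out by the divalent metal transporter that Slc11a2 encodes. Iron that is not used is stored in ferritin, and the exporter ferroportin, encoded by Slc40a1, passes it out of the cell, where a copper ferroxidase such as ceruloplasmin or hephaestin oxidises it for loading onto transferrin. When iron is scarce, iron regulatory proteins stabilise the receptor mRNA and block translation of ferritin. Meltf encodes melanotransferrin, a membrane-anchored relative of transferrin that cartilage cells are known to express.

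The start regions of Tfrc, Cp and Meltf are shown because these 3 genes differed at least 2-fold between days 15 and 2 and have an entry in the RefSeq promoter table used, on build GRCm38.p6. Slc40a1, Slc11a2 and Trf were not matched, and Fth1, which stayed within 2-fold, is not shown. Each stretch runs from 180 bases before to 20 bases into the transcript of the first listed start, on the + strand, at chr16:32608716-32608915 for Tfrc, chr3:19956874-19957073 for Cp and chr16:31878630-31878829 for Meltf. Capitals mark matches to the searched motifs.
Tfrc: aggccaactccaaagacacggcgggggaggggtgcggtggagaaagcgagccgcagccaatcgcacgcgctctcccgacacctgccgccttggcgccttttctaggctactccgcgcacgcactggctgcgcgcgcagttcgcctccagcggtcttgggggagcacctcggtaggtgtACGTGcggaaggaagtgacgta
Cp: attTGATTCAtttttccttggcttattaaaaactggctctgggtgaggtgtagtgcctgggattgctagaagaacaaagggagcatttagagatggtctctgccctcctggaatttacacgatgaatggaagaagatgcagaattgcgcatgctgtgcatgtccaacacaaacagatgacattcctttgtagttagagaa
Meltf: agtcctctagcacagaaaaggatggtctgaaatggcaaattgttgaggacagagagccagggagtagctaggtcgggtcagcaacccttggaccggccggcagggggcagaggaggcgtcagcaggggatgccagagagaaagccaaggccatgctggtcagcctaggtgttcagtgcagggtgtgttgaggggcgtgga
The motifs were searched on both strands of the whole 300-base window. They were ACGTG (a form of the core of the hypoxia response element) and CACGTG (the E-box, which contains ACGTG). The others, where N is any base, were TGACNNNGC (the antioxidant response element) and TGANTCA (looser than the AP-1 element in its middle base). ACGTG spans the Tfrc start, and 19.6% of all 32851 windows hold it. TGANTCA lies near the far end of the Cp stretch, and 7.81% of all windows hold it. CACGTG and TGACNNNGC, held by 7.15% and 12.4% of all windows, were not found in these 3 windows, nor was any of the motifs in that of Meltf. A match is a run of letters and was not tested as a binding site.

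Values are deposited intensities on a linear scale. Readings below 73.1, the 40th percentile of the table, were raised to that floor before a ratio or log2 was taken, so a fold with 1 day at the floor is a bound and written as "at least". A gene with several probe sets is represented by the one with the highest mean intensity, called its main probe set. With 1 array per day there were no replicates to set a difference against. The scatter among probe sets of a gene served as a guide: over 3317 genes with 2 probe sets, 1 probe set's log2 difference between days 15 and 2 had an SD of 0.68, which leaves out variation between arrays or dishes. Median intensity lay between 106 and 118 on the 5 arrays. Controls for RNA integrity gave 3' over 5' ratios between 1.17 and 1.27 for Actb and between 0.62 and 0.80 for Gapdh.

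The chondrocyte label was checked on 16 marker genes, and all 16 were above the intensity filter, as were 11075 of all 18193 genes. Their summed intensity was 161672, 183919, 110614, 53399 and 65790 on days 2, 6, 9, 12 and 15. Col2a1, the type II collagen gene, was 46505 on day 2, 7510 on day 12 and 17566 on day 15. Comp and Matn1 went the other way, with 813 and 213 on day 2 and 12248 and 745 on day 15. By the sum, the cartilage signal was present throughout and weaker on days 9, 12 and 15 than on days 2 and 6.

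At the level of whole genes, 2 of the 6 measured members were at least 2-fold higher on day 15 than on day 2, namely Slc40a1 and Cp, and 2 at least 2-fold lower, namely Meltf and Tfrc. Fth1 and Slc11a2 stayed within 2-fold. Over all 11075 genes that passed the intensity filter, 27.8% differed at least 2-fold, with 16.2% higher and 11.6% lower. The members were chosen with this contrast known, so nothing is read from their count. The receptor and the transferrin relative were thus highest in the first array, the exporter in the last, and the ferroxidase on day 12.

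**Figure D1:**
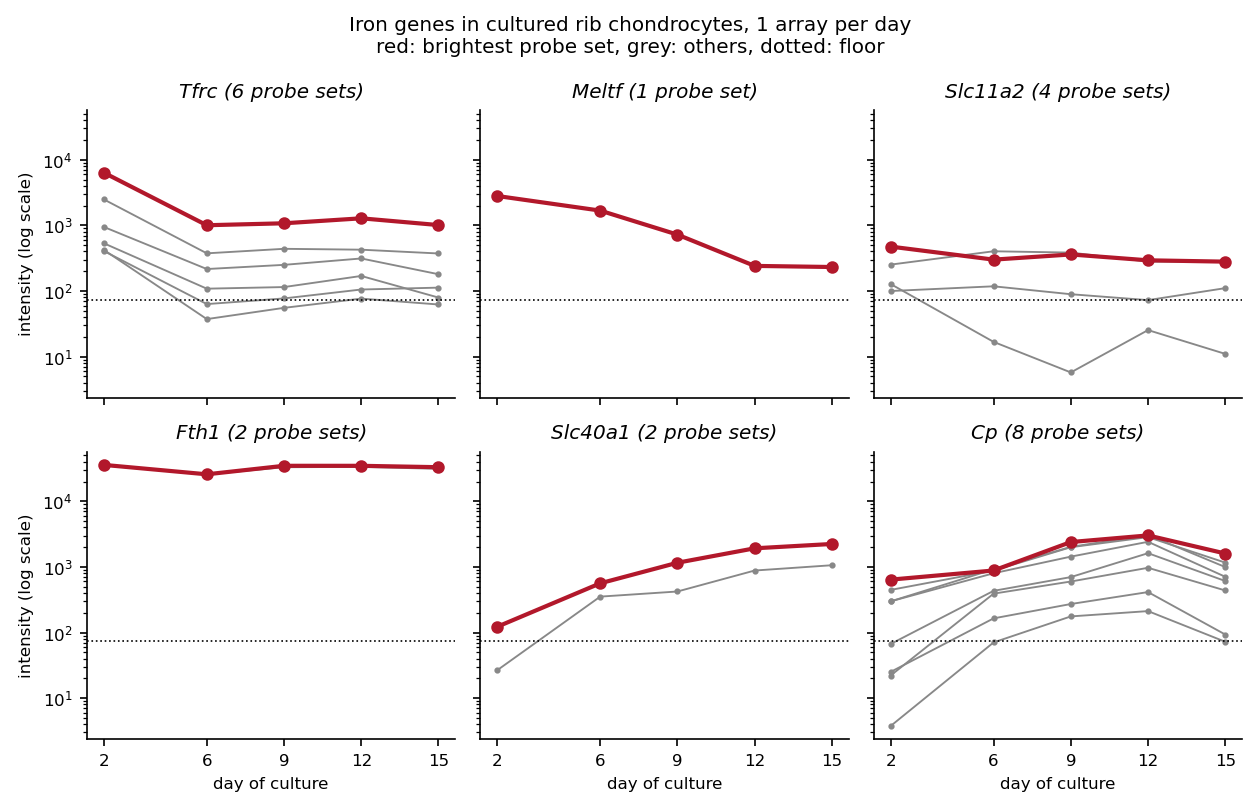
Intensity (log scale) against day of culture for every probe set of the 6 measured genes, with 1 array per day and no error bars. Red marks the main probe set, grey the others, and the dotted line the floor of 73.1. The main Tfrc line is at 6359 on day 2 and between 1004.5 and 1281 on every later day, Meltf descends over several days, the 2 Fth1 lines lie on each other and stay level, Slc40a1 climbs to 2236 on day 15, and all 8 Cp lines peak on day 12.

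Tfrc encodes the transferrin receptor, the main entry for iron. By its main probe set (1452661_at) its intensity was 6359, 1004.5, 1076, 1281 and 1011 on days 2, 6, 9, 12 and 15. Day 2 stood apart from the other 4 days, which lay within 1.28-fold of each other. The order from the top was day 2, day 12, day 9, day 15 and day 6. The step between day 2 and day 12 was 2.31 on the log2 scale, while each of the lower steps was 0.25 or less, under the probe set spread of 0.68.

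The difference in Tfrc therefore lay before day 6. Its intensity was 6.33-fold lower on day 6 than on day 2 and 6.29-fold lower on day 15 than on day 2, and the log2 difference between days 15 and 6 was 0.01. Of all 11075 genes, 5.7% were lower and 10.2% higher by at least 2-fold on day 6 than on day 2. All 6 Tfrc probe sets were highest on day 2, and they were 4.38-fold to 6.64-fold lower on day 6 than on day 2, the 2 control probe sets at the floor on day 6 counted at that floor.

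Of the 6 Tfrc probe sets, 3 are array controls placed along the transcript. The 3' control had 946, 216, 250.1, 313 and 180.01 in order of day, the middle one 407, 63.1, 77, 105 and 112, and the 5' one 423, 37.3, 55.3, 76.5 and 62.2. The drop after day 2 was seen at all 3 positions. The 5' reading was under the floor on days 6, 9 and 15, so its later values are at or near background. The 3' over 5' ratio of the Tfrc controls, taken without the floor, was 2.24, 5.80, 4.52, 4.09 and 2.89 in order of day. The later ratios rest on those dim 5' readings.

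Lists of cell state were read on the same arrays. Of 14 measured proliferation genes, 1 was at least 2-fold lower on day 6 than on day 2 and 0 were higher, against 5.7% lower and 10.2% higher over all genes, and the summed intensity of the list was 51647 on day 6 and 77694 on day 2. Rrm2, the ribonucleotide reductase subunit, was the lower one, with 8997 on day 6 and 19428 on day 2. Of 8 measured targets of the oxidant-response factor Nrf2, 4 were at least 2-fold lower and 0 higher on day 6, and the sum was 13127 on day 6 and 32008 on day 2. Txnrd1, thioredoxin reductase, had 3847 on day 6 and 11074 on day 2. The part of these lists in the Tfrc values was not tested.

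Red cell precursors carry much transferrin receptor. None of the 11 erythroid genes with a probe set reached the intensity filter, which 11075 of all 18193 genes did. The summed intensity of the 11 ran between 439 and 598 over the 5 arrays. The alpha globin gene Hba-a1 was under the floor on every day, as was Alas2, the erythroid enzyme that opens haem synthesis.

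Meltf, melanotransferrin, had a single probe set, 1419755_at. Its intensity was 2805, 1680, 723, 241 and 232 on days 2, 6, 9, 12 and 15. Each later day was lower than the one before, and the last pair differed by 0.06 on the log2 scale, less than the probe set spread. Unlike the single early step of Tfrc, the log2 gaps between neighbouring days were 0.74, 1.22 and 1.58 up to day 12. Meltf was 2.32-fold lower on day 9 than on day 6, where 4.06% of all genes were at least 2-fold lower, and lower by 1.58 on the log2 scale on day 12 than on day 9, where 1.51% were. Over days 15 and 6, which leave out the first array, it was 7.24-fold lower, against 6.16% of all genes at least 2-fold lower. Day 15 was 12.1-fold lower than day 2, and 12 of the 11075 genes were lower still by that measure. Most chondrocyte markers were lower in the same span, with 11 of the 16 at least 2-fold lower and 2 higher on day 15 than on day 2. Over all genes 11.6% were lower and 16.2% higher by as much. Between days 15 and 12, where Meltf was level, 2 of the 16 were at least 2-fold higher, 0 were lower by as much, and 14 were within 2-fold. Over all genes 4.23% were higher and 3.92% lower between those days. The part of the chondrocyte share in the Meltf values was not tested.

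Slc11a2 encodes the transporter that brings iron out of the endosome, and its 4 probe sets did not share a direction. The main one, 1452078_a_at, had 475, 300.4, 360.2, 293 and 279.9 in order of day, 1.70-fold lower on day 15 than on day 2. The second, 1426441_at, had 252, 403, 385, 280.2 and 279.3, 1.11-fold higher. The third was 1.11-fold higher too, and the dimmest was above the floor on day 2 alone, at 128, which makes it at least 1.75-fold lower. Apart from that dimmest probe set, whose bound does not show whether it passed 2-fold, they stayed within 2-fold between days 15 and 2. The gene is known to make transcripts with and without an iron-responsive element, and the files do not say which of them a probe set reads.

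Fth1 encodes the ferritin heavy chain, the subunit that oxidises iron for storage. Its main probe set, 1448771_a_at, had 35884, 25788, 34770, 34749 and 33109 on days 2, 6, 9, 12 and 15. The second, 1427021_s_at, had 35222, 25758, 33060, 33472 and 31227. On both, day 6 was the lowest and the other 4 days lay close together. The largest gap between neighbouring days in the order of the main probe set was 0.36 on the log2 scale, under the probe set spread. Day 15 was 1.08-fold lower than day 2 by the main probe set and 1.13-fold lower by the other. No difference of 2-fold was seen between any days for this gene, while the receptor was 6.29-fold lower and the exporter 18.3-fold higher on day 15 than on day 2. Ferritin is controlled largely at translation, which mRNA arrays do not read.

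Slc40a1 encodes ferroportin, the known iron exporter of mammalian cells. Its main probe set, 1417061_at, had 122, 562, 1157, 1921 and 2236 in order of day. Each day was higher than the one before, with log2 gaps of 2.20, 1.04 and 0.73 up to day 12 and 0.22 from day 12 to day 15, the last of these under the probe set spread. Day 15 was 18.3-fold higher than day 2, and 79 of the 11075 genes were higher by that measure. Slc40a1 was 4.59-fold higher on day 6 than on day 2 and 2.06-fold higher on day 9 than on day 6, where 5.87% of all genes were at least 2-fold higher. It was 1.66-fold higher on day 12 than on day 9, where 1.72% of all genes reached 2-fold. Day 15 was 3.98-fold higher than day 6, against 8.42% of all genes at least 2-fold higher, so that 1.99 of the 4.19 log2 units lay after day 6. The second probe set, 1448566_at, had 26.6, 352, 422, 881 and 1060, in the same order of days, and with day 2 at the floor it was at least 14.5-fold higher on day 15 than on day 2.

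Macrophages, which recycle red cells, are known for high ferroportin. Of 15 macrophage markers 7 passed the intensity filter, as did 11075 of all 18193 genes. Past 2-fold on day 15 against day 2, 0 of the 7 were higher and 2 lower. That is 28.6%, near the 27.8% of all genes, so nothing is read from the count. The sum over the 15 was 1367 on day 15 and 2171 on day 2, and ran between 1040 and 2171 over the 5 arrays. Cd163, Vsig4, C1qa, C1qb, C1qc, Ptprc, Fcgr1 and Tyrobp lay below the filter. Single markers went both ways: Cd68, a lysosomal protein gene, had 362 on day 15 and 252 on day 2, and Cd14, a lipopolysaccharide co-receptor gene, 128 on day 15 and 447 on day 2. The part of macrophages in the Slc40a1 values was not tested.

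Markers of bone-forming and fibrous cells were higher on the later days, as Slc40a1 was. On day 15 all 7 measured osteoblast markers exceeded day 2 by 2-fold or more, against 16.2% of all genes. Their summed intensity was 1550, 18630, 59813, 93789 and 123892 in order of day. Of 10 fibroblast markers 8 were higher by as much and 0 lower, against 16.2% and 11.6% of all genes. Their sums were 8042, 27008, 71493, 78644 and 89480. The part of these cell types in the Slc40a1 values was not tested.

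Cp encodes ceruloplasmin, the copper ferroxidase that works with ferroportin, and was read by 8 probe sets. The main one, 1417494_a_at, had 640, 881, 2393, 3019 and 1600.3 on days 2, 6, 9, 12 and 15. Day 12 was the peak and was 4.72-fold higher than day 2, a contrast in which 16.1% of all genes were past 2-fold upward and 11.4% downward. Day 15 was 1.89-fold lower than day 12 and 2.50-fold higher than day 2. Day 15 lay between days 9 and 6 in the order of days, with log2 gaps of 0.58 and 0.86 to them.

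All 8 Cp probe sets were highest on day 12. Between days 12 and 2 they were 2.90-fold to 22.1-fold higher, with 4 of them at the floor on day 2 and so bounds. Between days 15 and 12 they were 1.89-fold to 4.44-fold lower, the dimmest as a bound. On day 15 against day 2, 6 of the 8 were at least 2-fold higher, the dimmest was at the floor on both days and has no fold, and 1417497_at was at least 1.27-fold higher. The second probe set, 1417495_x_at, had 446, 880.4, 1996, 2842 and 1163, and the third, 1448734_at, 298, 919, 2020, 3067 and 995. The probe sets thus shared the shape of the course and differed in its size.

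**Figure D2:**
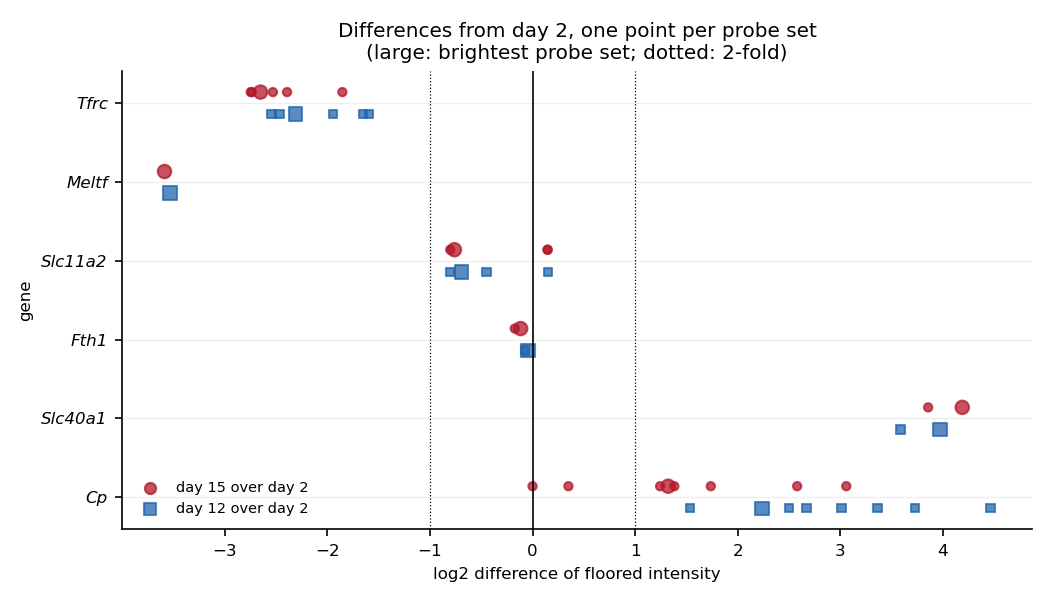
Log2 difference of floored intensity from day 2, for day 15 (red circles) and day 12 (blue squares), with 1 point per probe set, the main one drawn larger, and dotted lines at 2-fold. All 6 Tfrc probe sets and that of Meltf lie left of the 2-fold line on both days, both Slc40a1 probe sets lie far to the right, Fth1 and Slc11a2 lie between the lines, and each of the 8 Cp probe sets has a smaller difference on day 15 than on day 12.

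Adipocyte genes had a similar shape. Of 9 measured adipocyte markers, 7 were at least 2-fold higher and 0 lower on day 15 than on day 2, against 16.2% and 11.6% of all genes. On day 15 against day 12, 5 of the 9 were at least 2-fold lower, against 3.92% of all genes. Their summed intensity was 3682, 12436, 59220, 103997 and 54980 in order of day. Adipoq, the adiponectin gene, had 79.3, 79.6, 5191, 16395 and 5924. Fabp4, a fatty acid carrier of fat cells, had 267, 1680, 17222, 36538 and 24981. Between days 6 and 2, 3 of the 9 adipocyte genes were at least 2-fold higher and 0 lower, against 10.2% and 5.7% of all genes. The Cp value of day 6 was above that of day 2 in 7 of the 8 probe sets after the floor. The part of fat cells in the Cp values was not tested. Glial cells also make ceruloplasmin. Of 6 measured Schwann cell and glial genes, Cnp, a myelin enzyme gene, was higher past 2-fold, with 2161 on day 15 and 403 on day 2, and Fabp7, a glial fatty acid carrier, lower, with 124 on day 15 and 1808 on day 2. Over all genes 16.2% were higher and 11.6% lower past 2-fold between those days. The glial list summed to between 4197 and 5560 over the 5 arrays, and the part of glia in the Cp values was not tested.

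Ceruloplasmin and the transferrin receptor are known in human cells as genes that low oxygen raises. All 15 hypoxia genes were at least 2-fold higher on day 15 than on day 12, against 4.23% of all genes, with a summed intensity of 133491 on day 15 and 40193 on day 12. Between the same arrays Cp was 1.89-fold lower and Tfrc 1.27-fold lower by their main probe sets. The Tfrc difference lay between days 2 and 6. On day 6 against day 2, 1 of the 15 hypoxia genes was at least 2-fold higher and 1 lower, against 10.2% and 5.7% of all genes. The sum of that list was 55366.5 on day 6 and 73669 on day 2. Bnip3, a mitophagy gene of that list, had 22077 on day 15 and 3724 on day 12. The part of low oxygen in the values of Cp and Tfrc was not tested.

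Ceruloplasmin is also an acute phase protein of the liver. Of 10 measured genes of the acute phase and inflammation list, 6 were at least 2-fold higher and 0 lower on day 15 than on day 2. Over all genes 16.2% were higher and 11.6% lower by as much. The other 4 were within 2-fold, among them Lcn2 and Orm1, which were 1.90-fold and 1.62-fold lower. Saa1 and Saa3 lay below the intensity filter. Serpina3n, a protease inhibitor gene, had 4847 on day 15 and 1856 on day 2, and Socs3, a feedback inhibitor of cytokine signalling, 4094 on day 15 and 792 on day 2. The part of that response in the Cp values was not tested.

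The genes whose courses lay nearest to a member were found among 10697 others by the root mean square difference of the 5 log2 intensities about each gene's own mean, over 5 arrays that all genes share. For Slc40a1 they were Bicc1, an RNA-binding protein gene, at 0.10 and Rnase4, a ribonuclease gene, at 0.13. For Cp they were Zfp580, a zinc finger gene under the floor on day 2, at 0.03 and Kitl, the ligand of the Kit receptor, at 0.08. For Meltf they were Ncmap at 0.16 and the transcription factor gene Sim2 at 0.29. For Tfrc they were Cd93 at 0.15 and the desmosomal gene Pkp1 at 0.18, and both lay under the floor on 3 days, so that their likeness rests partly on the floor. Bicc1 had 674, 3289, 6493, 9116 and 11882 in order of day, and Kitl 1723, 2315, 5970, 7791 and 4736.

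Beyond the members, 71 other genes of iron and haem were listed. No own probe set was annotated for 5 of them, among which was the ferritin light chain gene Ftl1, and 10 lay below the intensity filter. On day 15, 13 of the 56 measured were higher than on day 2 by 2-fold or more, 4 were lower by as much, and 39 were within 2-fold. This made 30.4% past 2-fold, near the 27.8% of all genes. The median log2 difference was 0.32, against 0.00 over all genes. A linear trend on day, fitted with limma over all 11075 genes, called 0 of the 56 rising and 0 falling after Benjamini-Hochberg adjustment (lowest adjusted p = 0.0734), with 12 rising and 6 falling at an unadjusted p under 0.05. Over all genes that fit called 6 rising (0.0542%) and 0 falling, with 1590 and 1410 at an unadjusted p under 0.05. With so few calls over all genes, 0 of 56 does not show that these genes lacked a trend.

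Uptake and reduction genes went both ways. Past 2-fold, 5 of the 15 measured were higher and 2 lower, against 16.2% higher and 11.6% lower over all genes. Steap4, a metalloreductase that can reduce iron, had 25.5, 431, 4874, 5088 and 1428 in order of day, at least 19.5-fold higher on day 15 than on day 2 (at least 13.7-fold by its other probe set). Hfe, the gene of the haemochromatosis protein that binds the transferrin receptor, was 9.11-fold higher, with 1279 on day 15 and 140 on day 2, although its second, dimmer probe set was not higher. Scara5, known in mouse as a receptor for ferritin, had 16.4, 26.6, 1000.1, 1349 and 642, at least 8.78-fold higher on day 15 than on day 2, with no such difference on its dim second probe set.

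Tfr2, the second transferrin receptor, was 4.03-fold higher, and Steap3, the endosomal reductase that works before Slc11a2, 2.32-fold higher. Slc39a14, a transporter of zinc and of iron not bound to transferrin, was lower like Tfrc, with 2892, 1341, 767, 716 and 980 in order of day, 2.95-fold lower on day 15 than on day 2. Of its 3 other probe sets, 2 were 2.45-fold and 2.88-fold lower and the dimmest was level. Cubn, the endocytic receptor cubilin, was 2.63-fold lower. Snx3, which sorts the transferrin receptor in endosomes, and the zinc transporter gene Slc39a10 were level, with log2 differences of 0.07 and -0.10.

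Among 5 measured genes of storage, iron chaperones and ferritin turnover, 1 was at least 2-fold higher and 0 lower, against 16.2% and 11.6% of all genes. The higher gene was Fbxl5, the iron-sensing ubiquitin ligase subunit that removes an iron regulatory protein, at 2.09-fold. Pcbp1 and Pcbp2, chaperones that hand iron to ferritin, had log2 differences of -0.28 and -0.19. Ncoa4, the receptor for ferritin breakdown, had -0.01 and is named after its values were seen.

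Of 4 measured export and oxidation genes, 1 was higher and 1 lower past 2-fold, against 16.2% and 11.6% of all genes. Heph, the membrane-bound relative of ceruloplasmin, had 17.2, 126, 811, 1276 and 567 in order of day, at least 7.76-fold higher on day 15 than on day 2, with its peak on day 12 like Cp. Flvcr1, known as a haem exporter, was 2.48-fold lower on day 15 than on day 2, while a dim second probe set was at the floor on both days. Slc46a1 and Flvcr2, transporters linked to haem, were within 2-fold, with log2 differences of 0.28 and -0.66. Hamp, the hormone hepcidin that degrades ferroportin, lay below the intensity filter.

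**Figure D3:**
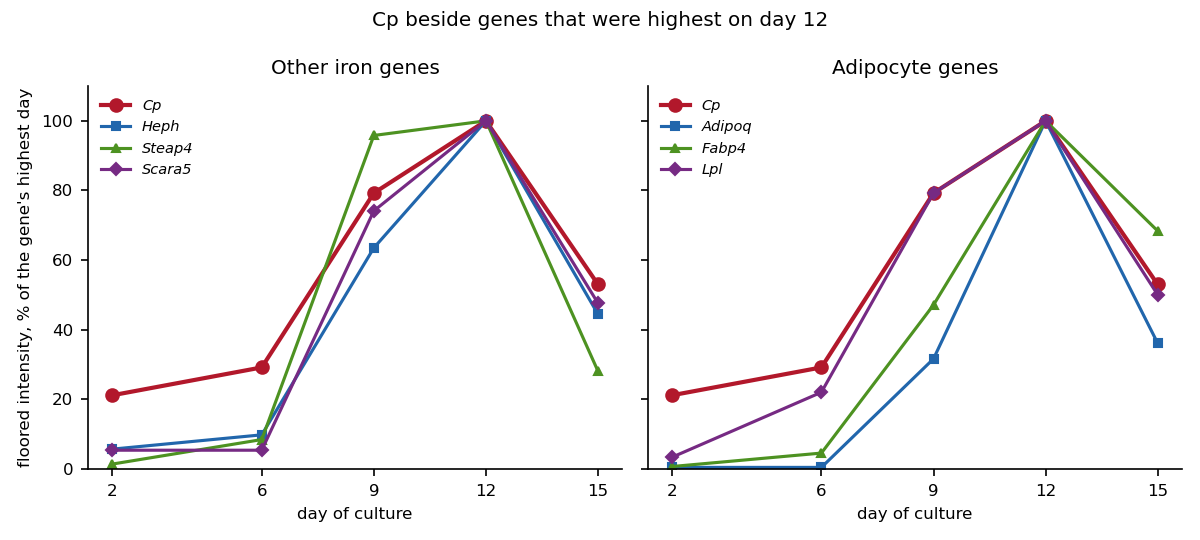
Floored intensity as a percentage of each gene's own highest day, against day of culture, for Cp (red, main probe set) beside Heph, Steap4 and Scara5 on the left and beside the adipocyte genes Adipoq, Fabp4 and Lpl on the right, with 1 array per day. The 7 genes are drawn because they are highest on day 12, and the 6 genes beside Cp start from a smaller share of their peak on day 2.

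A peak on day 12 was found for 9 of the 30 other iron genes whose highest and lowest days differed at least 2-fold, which is 30% of them, against 17.7% of the 5156 genes of all kinds with such a range. For peaks on days 2, 6, 9 and 15 the shares were 13.3%, 16.7%, 16.7% and 23.3%. The shares over all genes with such a range were 32.7%, 12.4%, 12.6% and 24.5%. Day 12 is the day on which Cp peaked, and no test was made of any of these shares. The 9 genes highest on day 12 were Steap4, Hfe, Scara5, Heph, Slc46a1, Aco1, Iscu, Alas1 and Hp. Hp, haptoglobin, which binds haemoglobin, had 112, 567, 4717, 9781 and 7268 in order of day.

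Of 6 measured genes of iron sensing, 2 were higher and 1 lower past 2-fold, against 16.2% and 11.6% of all genes. Bmp6, the ligand that tells the liver of iron stores, was at least 3.91-fold lower on day 15 than on day 2, at the floor on day 15. Bmp2, a related ligand, was 2.32-fold higher and Smad4, their shared signal carrier, 2.03-fold higher, with its other 2 probe sets at 1.09-fold and 1.28-fold. Aco1, which encodes an iron regulatory protein, had 3649, 4736, 7713, 9677 and 5138 in order of day. Neo1, a co-receptor of that signal, had a log2 difference of 0.06, and Ireb2, the other iron regulatory protein, 0.09 and is named after its values were seen.

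Most mitochondrial users of iron were within 2-fold, as were most genes of all kinds. Of 19 measured genes of mitochondrial iron, iron-sulphur cluster and haem synthesis, 3 were past 2-fold upward and 0 downward, against 16.2% and 11.6% of all genes. Ppox, a late enzyme of haem synthesis, was at least 3.72-fold higher on day 15 than on day 2, and the transporter genes Abcb8 and Abcb10 were 2.56-fold and 2.26-fold higher. None of these 3 differed 2-fold in that direction by another probe set. Glrx5, a cluster carrier, and Urod, a haem synthesis enzyme, had log2 differences of -0.74 and 0.45. Of 7 measured genes of haem breakdown and scavenging, Hp was higher and 0 were lower, while Hmox1, the haem-degrading oxygenase that releases iron, and Pgrmc1, a haem-binding protein, had log2 differences of -0.93 and 0.59.

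**Figure D4:**
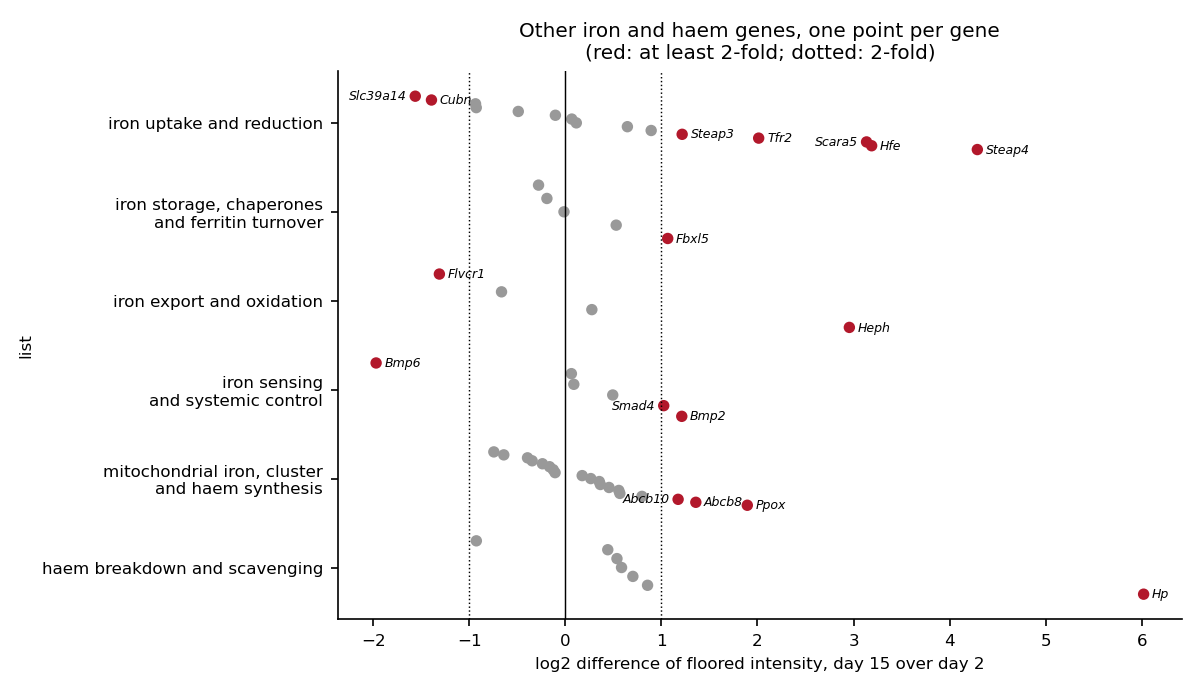
Log2 difference of floored intensity, day 15 over day 2, for the 56 measured iron and haem genes outside the 7, in 6 lists, with 1 point per gene by its main probe set. Red points with names are past 2-fold (dotted lines): 13 lie to the right and 4 to the left, and the mitochondrial list has 16 of its 19 points between the lines.

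Of the 17 other iron genes past 2-fold, 12 had further probe sets. For 5 of these 12 another probe set was past 2-fold in the same direction, namely Tfr2, Slc39a14, Steap3, Steap4 and Cubn. For Hfe, Scara5, Flvcr1, Smad4, Abcb8, Abcb10 and Ppox none was.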

How the data were processed

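Total RNA of 5 cultures was labelled with biotin and read on 1-colour oligonucleotide arrays. Per the submitters' processing notes the deposited intensity values were made with MAS5, with no version given, and they are linear. The mean of each array, trimmed by 2% at both ends, was 500.003, which is a scaling of the arrays to a common level. It would hide a change that all transcripts share. Depth does not apply to arrays, and their number limits the precision.

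Gene names came from the array platform's annotation, with symbols updated by gene ID through the RefSeq table of GRCm38.p6 (names only). Of 45101 probe sets 64 were controls, 34945 others carried 1 symbol, 932 several and 9160 none, and 204 kept an older symbol. Genes were represented by their brightest probe set and kept at a mean intensity of 105.93, the median over probe sets that are not controls. The trend test used limma 3.58.1 in R 4.3.3 (lmFit, eBayes, two-sided, Benjamini-Hochberg, threshold 0.05). It was fitted over all 11075 genes, the 6 measured members included, and its single-gene results were read only for genes outside the 7. In simulated data for the same 11075 genes the test recovered 1, 23, 46 and 50 of 50 genes with straight changes of 1, 2, 3 and 4 on the log2 scale, with 10 of 130 calls false. The simulated noise was independent and normal and the changes were straight, so recovery on the real arrays can be lower. There Hp, with a log2 difference of 6.02 between days 15 and 2, was not called by the limma trend (adjusted p = 0.0734). Other steps used Python 3.11.15, pandas 2.3.3, numpy 2.4.6 and matplotlib 3.10.9.

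The members, the lists of other genes and the rule for names were chosen with earlier results of these data known. Named were the members, the listed iron genes past 2-fold with the 2 brightest others of each list, the 2 genes nearest in course to each member that varied 2-fold, and up to 4 of the brightest genes of each marker list. Alas1, Alas2, Comp, Ftl1, Hba-a1, Iscu, Lcn2, Matn1, Ncoa4, Ireb2, Orm1 and single list genes said to be below the filter were named after their values were seen. Alternatives changed the scaling, the floor, the filter, the probe set rule, the days compared and the trend's time scale.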

Additional observations from a re-analysis of the deposited data

How the results depend on the processing

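No paired analysis was possible because each day had 1 array and no replicate numbers. A member's difference counted as moved when it changed by more than the probe set SD of 0.68. Quantile normalization, median centring, a pseudocount, other floors and the mean over probe sets moved no member by that much. Median centring moved the median of all genes to 0.14. Other days did move members. Against day 6 in place of day 2, an alternative added after the data were seen, day 15 gave log2 differences of 0.0090 for Tfrc (the opposite sign), 1.99 for Slc40a1 and -2.86 for Meltf. Days 12 and 15 pooled against days 2 and 6 gave -1.15 for Tfrc and 2.98 for Slc40a1, and day 12 against day 2 gave 2.24 for Cp. Pooling left 1091 genes at least 2-fold higher and 622 lower, with 8 other iron genes higher. The filter at the 70th percentile left 1159 and 783 genes, and 2 other iron genes lower, the same count that a 60th percentile floor gave.

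The linear trend depended on its settings. It called 0 genes rising with the 60th percentile as floor, with all genes kept, and without day 2, day 6, day 9, day 12 or day 15 in turn (0 to 0, added after the data were seen). With an intensity trend in eBayes it called 278 rising and 172 falling, of which 2 other iron genes, Hfe and Hp, were rising. With log2 of day it called 734 rising and 476 falling. Then 3 other iron genes were rising, Hfe, Hp and Ppox, and 2 falling, Slc39a14 and Bmp6. The cause was not tested. Readings near the floor, such as the dim probe sets of Slc11a2 and Cp, are limited by signal over background.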
